A study of Mus musculus with 3 samples.

Results

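Cytochrome P450s and the other detoxifying enzymes were followed across 3 stromal cell populations sorted from the mouse mesenteric lymph node. The genes were chosen by their names on the array: the P450s (Cyp), glutathione transferases (Gst and Mgst), UDP-glucuronosyltransferases (Ugt), aldehyde, alcohol and aldo-keto enzymes (Aldh, Adh, Akr), sulphotransferases (Sult), flavin monooxygenases (Fmo), carboxylesterases (Ces) and epoxide hydrolases (Ephx). The retinaldehyde dehydrogenases Aldh1a1, Aldh1a2 and Aldh1a3, the retinoic acid hydroxylase Cyp26b1 and the sterol demethylase Cyp51 were left out. The rule found 184 of the 28084 gene names: 79 P450s, 23 glutathione transferases, 15 UDP-glucuronosyltransferases, 17 aldehyde dehydrogenases, 6 alcohol dehydrogenases, 15 aldo-keto reductases, 11 sulphotransferases, 7 flavin monooxygenases, 7 carboxylesterases and 4 epoxide hydrolases. Lymphatic endothelial cells (LEC; gp38+, CD31+) line the lymph sinuses, blood endothelial cells (BEC; gp38-, CD31+) line the blood vessels, and fibroblastic reticular cells (FRC; gp38+, CD31-) build the fibre network of the node. All came from wild-type C57BL/6NCrl mice, whose number and age the labels do not give, and were sorted as CD45- CD24- cells after collagenase digestion. The labels give a mean sorted purity of 88% ± 1.5 over the subsets. Each population was read on 1 single-colour array, so the differences carry no replicate error and were not tested.

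Detoxification is usually described as a first step, in which P450s, flavin monooxygenases, dehydrogenases, reductases and esterases expose or create a reactive group, and a second step, in which transferases join glutathione, glucuronic acid or sulphate to it so that the product can be exported. The same families also act on the body's own molecules, among them steroids, oxysterols, fatty acids, eicosanoids and the aldehydes of lipid peroxidation. The mesenteric node receives the lymph that leaves the intestine, which carries absorbed lipids.

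Levels are log2 intensities minus the 75th percentile of the same array, so 0 is the 75th percentile, and a fold is a ratio between 2 arrays for 1 probe. The 75th percentile intensity was 267.8 on the LEC array, 360.8 on the BEC array and 386.4 on the FRC array. The lowest level well above background was -4.20 in LEC, -4.38 in BEC and -4.34 in FRC. Levels of different genes are read by different probes and are not compared with each other. A gene not well above background on the dimmer array is given as a bound ("at least"), taken against the higher of its own level and that lowest level. Probes spotted many times had a median SD between spots of 0.05 to 0.06 (log2), which covers spot error only. The populations stood apart by their defining genes. Pecam1 (CD31) was at 2.33 in LEC, 4.02 in BEC and -4.06 in FRC. The lymphatic regulator Prox1 was at 3.53, -0.51 and -3.56, and the fibroblast receptor Pdgfra at -0.86, -2.82 and 5.14, in that order of populations. In RNA from pooled cells, fewer cells of a type and less RNA per cell cannot be told apart.

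Of the 184 enzyme genes, 98 were well above background on all 3 arrays (53.3%, against 55.7% of all gene names) and 51 on none (27.7% against 31.8%). By array, 108 were above background in LEC (58.7%, against 61.3% of all names), 114 in BEC (62% against 62%) and 118 in FRC (64.1% against 62.1%). Detection on a single array was 2 genes in LEC (1.09%, against 1.17% of all names), 9 in BEC (4.89% against 2.56%) and 13 in FRC (7.07% against 2.98%). On pairs of arrays it was 4 genes for LEC and BEC (2.17% against 2.4%), 4 for LEC and FRC (2.17% against 2.04%) and 3 for BEC and FRC (1.63% against 1.39%). Most aldehyde dehydrogenases were detected, 16 of 17 in LEC, 14 in BEC and 16 in FRC. Of the 15 UDP-glucuronosyltransferases, 4 were detected in LEC, 7 in BEC and 7 in FRC. Of the 79 P450s, 42 were detected in LEC, 44 in BEC and 44 in FRC.

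**Figure D1:**
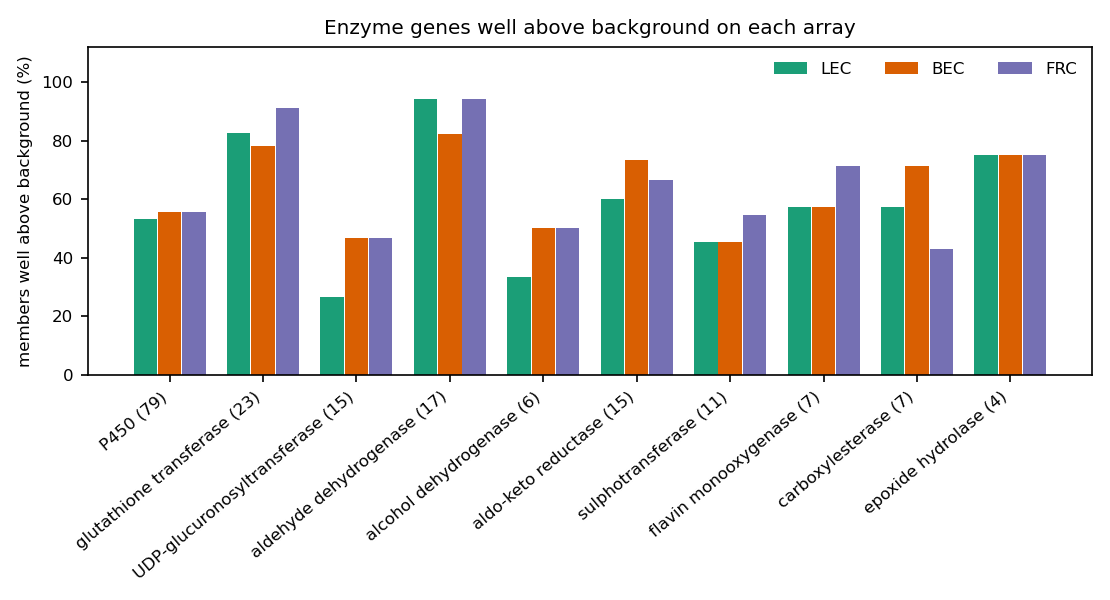
Share of each enzyme family well above background on the LEC, BEC and FRC arrays (percent of members, y axis; the number of members stands in brackets after each family name). Bars are single arrays without error. The P450 bars are nearly level at 42, 44 and 44 of 79, while LEC has 4 and BEC and FRC have 7 of the 15 UDP-glucuronosyltransferases.

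Where the enzymes differed by 4-fold or more, FRC had the higher level more often than either endothelium did. In LEC against FRC, 4 of 124 enzymes exceeded FRC by 4-fold or more (3.23%, with 4.89% of all genes compared) and 33 at least 4-fold lower in LEC (26.6%, with 5.93% of all genes). Dividing each array by its spike-in slope gave 9 higher and 32 lower in LEC. The shares over all genes under that slope are not given here, so these counts have no background beside them. Normexp background correction gave 3 higher (with 3% of all genes) and 20 lower (with 3.47%), so the shares over all genes fell as well. In BEC against FRC, 9 of 131 were higher in BEC (6.87%, with 6.58% of all genes) and 31 lower in BEC (23.7%, with 7.58% of all genes). In LEC against BEC, 2 of 120 were higher in LEC (1.67%, with 3.39% of all genes) and 13 lower in LEC (10.8%, with 3.38% of all genes). The spike-in slope turned that split into 4 higher and 11 lower, and normexp into 1 higher and 5 lower. For these counts too, the shares over all genes are not given. At 2-fold, 13 enzymes were higher in LEC than FRC (with 13% of all genes) and 49 lower (13.4%), 13 higher in BEC than FRC (16.8%) and 46 lower (16.5%), and 13 higher in LEC than BEC (11%) and 19 lower (10.2%). At 8-fold, 3 were higher in LEC than FRC (2.43%) and 17 lower (3.16%), 7 higher in BEC than FRC (3.35%) and 16 lower (3.98%), and 2 higher in LEC than BEC (1.1%) and 2 lower (1.37%). LEC minus FRC and BEC minus FRC share the FRC array, so their counts are not independent of each other.

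The median log2 difference over the enzymes compared was -0.64 for LEC minus FRC, beside 0.03 over all genes, and -0.38 for BEC minus FRC, beside 0.09. For LEC minus BEC it was -0.12, beside -0.07, and its sign turned under the spike-in slope (0.035), normexp (0.024) and without the filter on dim probes (0.044). Bounds entered the medians at their limits, for 22 of 124 enzymes in LEC minus FRC and 30 of 131 in BEC minus FRC. Without bounds the medians against FRC were -0.66 for LEC and -0.38 for BEC. Of the 98 enzymes detected on all arrays, 14 were highest in LEC (14.3%, against 27.6% of all such genes), 28 in BEC (28.6% against 39.2%) and 56 in FRC (57.1% against 33.2%). Their highest and lowest arrays were 4-fold or more apart for 36 (36.7%, against 16.1% of all such genes) and under 2-fold apart for 42 (42.9% against 59.8%).

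**Figure D2:**
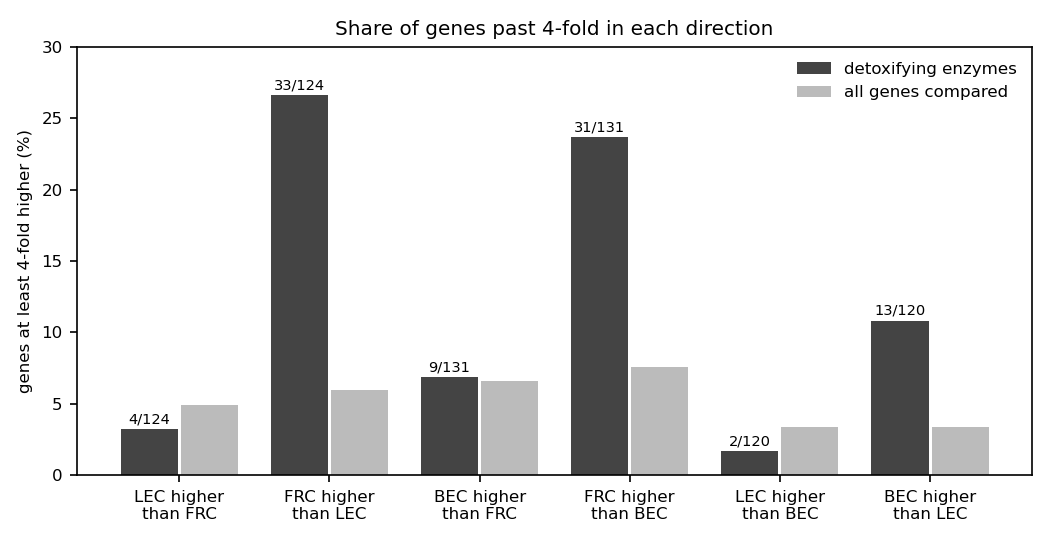
Percent of genes at least 4-fold higher in the first-named population (y axis), for the detoxifying enzymes (dark bars, with counts above) and for all genes compared (light bars). The dark bar is the taller one by the widest margin where FRC was higher than LEC (33 of 124) and where FRC was higher than BEC (31 of 131).

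**Figure D3:**
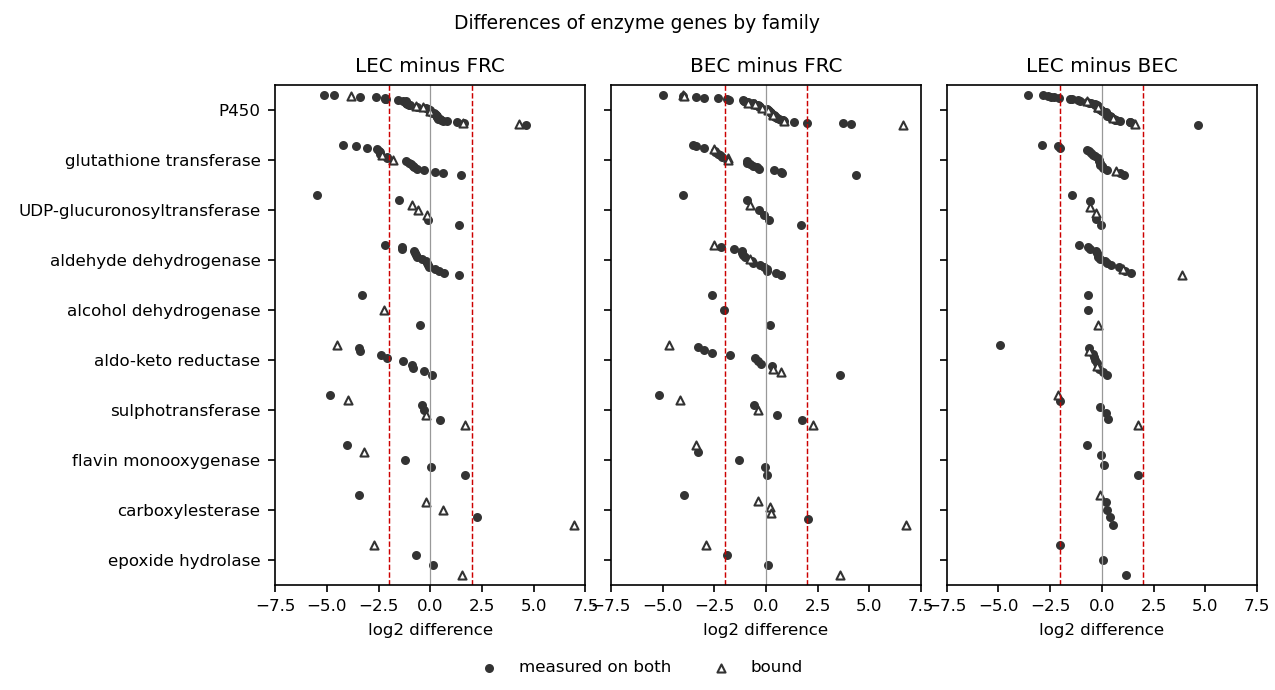
Log2 difference of every compared enzyme gene (x axes, 1 panel for each pair of populations), by family. Filled points were measured on both arrays, triangles are bounds, and dashed lines mark 4-fold. The points of the glutathione transferases lie mostly left of 0 in the panels against FRC, with 10 and 9 of 21 past the line.

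Among the P450s, 2 of 46 exceeded FRC by 4-fold or more in LEC and 8 were that much lower in LEC. BEC had 3 higher and 7 lower of 49. The higher counts are near the shares over all genes compared, 4.89% for LEC and 6.58% for BEC. For the lower counts the shares over all genes were 5.93% for LEC and 7.58% for BEC. The same shares stand beside the counts of the other families below. The dioxin-inducible P450s split the populations in different ways. Cyp1a1, which oxidises polycyclic aromatic hydrocarbons and is the textbook target of the aryl hydrocarbon receptor, was at -0.05 in LEC, 2.26 in BEC and -6.57 in FRC, where it was not well above background. It thus exceeded FRC by at least 19.5-fold in LEC and by at least 96.9-fold in BEC, and was 4.96-fold lower in LEC than in BEC. With normexp the log2 differences were 2.53 for LEC minus FRC and 4.67 for BEC minus FRC. Cyp1b1, which also oxidises aromatic hydrocarbons and oestrogens, was at 6.13 in LEC, 1.48 in BEC and 4.85 in FRC. It was 25.1-fold higher in LEC than in BEC, 10.3-fold lower in BEC than in FRC, and 2.42-fold higher in LEC than in FRC. A further Cyp1b1 probe was not well above background on any array. Cyp1a2 was above background in LEC alone, at -2.76, and its further probe was not well above background on any array. The receptor's own gene, Ahr, was at 1.50 in LEC, 3.06 in BEC and 0.17 in FRC, 7.39-fold higher in BEC than in FRC. Other genes of the receptor's pathway had other orders. Its repressor Ahrr was at -3.67 in LEC, -3.54 in BEC and -2.24 in FRC, and its target Tiparp at 1.54, 1.75 and 1.66, and neither passed 4-fold. The probe of Cyp1a1 lies at chr9:57551535-57551594 on the plus strand and that of Cyp1b1 at chr17:80106547-80106606 on the minus strand of mouse build mm9. Exons and UTRs of mm9 were not looked up.

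Because Cyp1a1 and Cyp1b1 differed in which endothelium had more, the start-proximal stretches that hold the core of the dioxin response element are shown, 5′ to 3′ on the gene's strand, with the core (GCGTG, or CACGC where it lies on the opposite strand) in capitals. They come from RefSeq on build GRCm38.p6, at chr9:57697529-57697593 on the plus strand for Cyp1a1 and chr17:79715103-79715167 on the minus strand for Cyp1b1.
Cyp1a1: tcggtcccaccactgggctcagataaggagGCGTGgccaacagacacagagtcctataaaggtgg
Cyp1b1: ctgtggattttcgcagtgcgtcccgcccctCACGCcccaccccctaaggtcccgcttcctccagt
The core begins 54 bases before the start in Cyp1a1 and 76 in Cyp1b1. In windows of 250 bases before to 50 after the start, searched on both strands, GCGTG occurred in 32.4% of all promoters, in at least 1 promoter of 35.2% of all genes, and of 35 of the 146 enzyme genes with a promoter in the table (24%).

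Cyp4b1, a hydroxylase of fatty acids and foreign compounds, was the other P450 higher in both endothelia. It was at 6.03 in LEC, 5.16 in BEC and 1.42 in FRC, above FRC by 24.6-fold in LEC and by 13.4-fold in BEC. Both endothelial levels lay well above the FRC level, and they differed from each other by 1.84-fold. The list of eicosanoid and fatty acid P450s held the Cyp2j, Cyp2u1, Cyp2s1 and Cyp4 genes. Of 15 compared between LEC and FRC, 1 was at least 4-fold higher in LEC (with 4.89% of all genes) and 3 lower (5.93%). Of 16 compared between BEC and FRC, 2 were higher in BEC (6.58%) and 1 lower (7.58%). With so few genes, the counts of 1 are near those shares. Cyp2j9, a P450 that oxidises arachidonic acid, was at -2.68 in LEC, 0.91 in BEC and 1.95 in FRC. It was 24.8-fold lower in LEC than in FRC and 12.0-fold lower in LEC than in BEC, so LEC stood apart from both, and with normexp LEC minus FRC was -3.33 log2. Cyp2j13 was at -2.05 in LEC, 0.39 in BEC and -3.70 in FRC, 17.1-fold higher in BEC than in FRC, or 2.59 log2 with normexp. A further Cyp2j13 probe, above background on all arrays, read -2.49, -2.68 and -1.99, lower in BEC than in FRC, so the probes disagree. Cyp2s1 was at -1.58 in LEC, -2.94 in BEC and 1.05 in FRC, 6.19-fold lower in LEC and 16.0-fold lower in BEC. Its further probe was above background in BEC alone and also disagreed.

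Cyp2e1, which oxidises ethanol and small solvents, was at -3.51 in LEC, -3.37 in BEC and 1.62 in FRC, 35.0-fold lower in LEC and 31.9-fold lower in BEC than in FRC, and with normexp its log2 differences were -3.44 and -3.58. Cyp2f2, known for activating naphthalene in mouse lung, was at -3.83 in LEC, -5.60 in BEC (not well above background) and -0.42 in FRC. It was 10.6-fold lower in LEC and at least 15.5-fold lower in BEC. Cyp2c23, named Cyp2c44 on the array and known as an arachidonic acid epoxygenase, was above background in FRC alone, at -0.37, and at least 14.2-fold lower in LEC and at least 16.1-fold lower in BEC. For these genes the endothelial levels were near or under the background limit. Cyp2d22 was at -2.70 in LEC, -0.09 in BEC and -0.54 in FRC, and Cyp2d12 at -3.19, -0.34 and -0.98 in the same order, so LEC was the low array of both. Cyp2d22 was 6.12-fold and Cyp2d12 7.20-fold lower in LEC than in BEC. With normexp, the LEC minus FRC calls of Cyp2c23, Cyp2d12, Cyp2d22, Cyp2f2 and Cyp2j11, and the LEC minus BEC calls of Cyp2d12, Cyp2d22 and Cyp2j13, no longer reached 4-fold. That of Cyp2c23 was -1.91 log2, near the limit.

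The P450s of sterol and bile acid metabolism were represented by 11 genes. None of the 6 compared passed 4-fold between LEC and FRC, with 4.89% of all genes higher and 5.93% lower in LEC. Of the 7 compared between BEC and FRC, 2 were at least 4-fold lower in BEC (with 7.58% of all genes) and 0 higher (6.58%). Cyp7b1, the oxysterol hydroxylase that acts on 25-hydroxycholesterol, was at 0.76 in LEC, -0.69 in BEC and 2.30 in FRC, 2.90-fold lower in LEC and 7.93-fold lower in BEC. Cyp27a1, the sterol 27-hydroxylase, was at -1.51, -2.85 and -0.51 in LEC, BEC and FRC, 5.07-fold lower in BEC than in FRC, a call lost with normexp. Both genes had their lowest level in BEC. Cyp39a1, a hydroxylase of 24-hydroxycholesterol, was at -0.11 in LEC, 0.08 in BEC and 1.18 in FRC. Cyp17a1, a steroid hydroxylase and lyase, was at 0.45, 0.07 and 0.46 in that order, within 1.31-fold between BEC and FRC. Cyp7a1 and Cyp8b1 of the classical bile acid pathway and Cyp11a1, which starts steroid synthesis, were not well above background on any array. Of the vitamin D enzymes, Cyp27b1 was at -2.11 in LEC, -1.80 in BEC and -0.93 in FRC, and Cyp2r1 at -3.07, -2.48 and -1.96. Neither passed 4-fold.

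**Figure D4:**
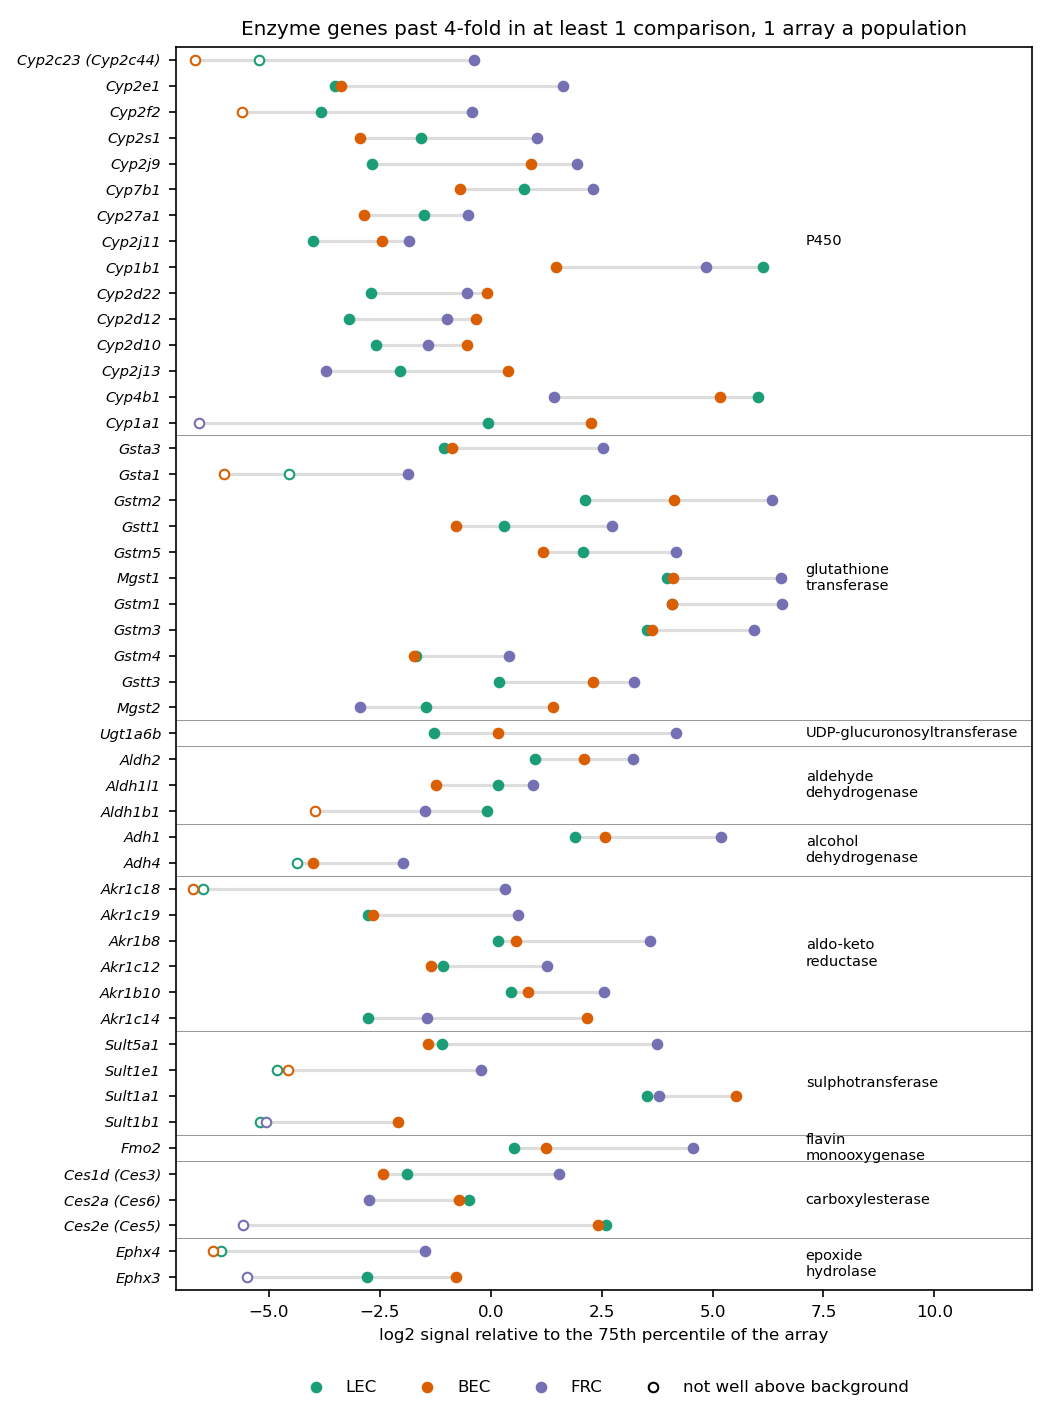
Levels of enzyme genes that passed 4-fold in at least 1 comparison, without 1 gene not reported here (log2 signal relative to the 75th percentile of the array, x axis), grouped by family. Each point is 1 array, and open points were not well above background. In most rows the FRC point lies to the right, while Cyp1a1, Cyp4b1, Ces2a, Ces2e, Cyp2j13, Mgst2 and Ephx3 have their FRC point on the left.

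The flavin monooxygenases oxidise nitrogen and sulphur atoms. Fmo2 was at 0.53 in LEC, 1.25 in BEC and 4.55 in FRC, 16.2-fold lower in LEC and 9.85-fold lower in BEC. Its further probes gave LEC minus FRC differences of -3.01 and -3.61 log2, and BEC minus FRC differences of -0.55 and -0.23. The probe with -3.61 read -6.29 in LEC, not well above background. Taken as a bound against the lowest LEC level above background, its difference falls under 4-fold. Fmo1 was at 3.83 in LEC, 2.10 in BEC and 2.16 in FRC, highest in LEC though under 4-fold.

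The alcohol dehydrogenase Adh1, which oxidises ethanol and retinol, was at 1.90 in LEC, 2.57 in BEC and 5.19 in FRC, 9.79-fold lower in LEC and 6.17-fold lower in BEC. A further Adh1 probe gave log2 differences of -3.37 for LEC minus FRC and -2.63 for BEC minus FRC. Adh5, the formaldehyde-oxidising enzyme of the same gene cluster, was at 3.09, 3.76 and 3.56 and did not pass 4-fold. Of 3 alcohol dehydrogenases compared, 2 were at least 4-fold lower than in FRC in LEC (with 5.93% of all genes) and 2 in BEC (7.58%). Of 16 aldehyde dehydrogenases compared, 1 was at least 4-fold lower in LEC than in FRC (with 5.93% of all genes) and 2 in BEC (7.58%). The LEC count is near the share over all genes. Aldh2, the mitochondrial acetaldehyde dehydrogenase, was at 0.99 in LEC, 2.10 in BEC and 3.20 in FRC, 4.62-fold lower in LEC. Aldh1b1, a mitochondrial relative, was at -0.08 in LEC, -3.97 in BEC (not well above background) and -1.48 in FRC, in LEC above BEC by at least 14.8-fold, and at least 5.62-fold lower in BEC than in FRC. Normexp kept neither call. The folate enzyme Aldh1l1 was at 0.16, -1.23 and 0.95, 4.53-fold lower in BEC than in FRC, also not kept. The rest of the family stayed under 4-fold.

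The aldo-keto reductases, which reduce aldehydes and ketosteroids, had 5 of 10 at least 4-fold lower in LEC than in FRC, and 4 of 12 lower and 1 higher in BEC. Akr1c18, the 20-alpha-hydroxysteroid dehydrogenase that inactivates progesterone, was above background in FRC alone, at 0.31. It was at least 22.8-fold lower in LEC and at least 25.8-fold lower in BEC, and with normexp its log2 differences were -2.55 and -2.93. Akr1c19 was at -2.76 in LEC, -2.65 in BEC and 0.62 in FRC, and Akr1b8, a reductase of lipid aldehydes, at 0.17, 0.57 and 3.59. Akr1c19 was 10.5-fold lower in LEC and 9.65-fold lower in BEC than in FRC. Akr1b8 had log2 differences of -3.42 for LEC minus FRC and -3.02 for BEC minus FRC. Akr1c14, the 3-alpha-hydroxysteroid dehydrogenase, ran the other way. It was at -2.76 in LEC, 2.16 in BEC and -1.44 in FRC, above FRC by 12.1-fold in BEC, and 30.4-fold lower in LEC than in BEC. These 4 genes share the array with relatives of like sequence. Among probes of the detected enzyme genes, the closest pair with an aldo-keto gene, Akr1c18 and Akr1b3, shared 32 of 60 bases. The closest pair of all, Cyp2c29 and Cyp2e1, shared 37. How each probe matches the other transcripts was not tested.

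The carboxylesterases, which hydrolyse ester drugs and lipids, held the bounds of greatest size on the endothelial side. Ces2e, named Ces5 on the array, was at 2.59 in LEC, 2.41 in BEC and -5.59 in FRC, where it was not well above background. It exceeded FRC by at least 122-fold in LEC and by at least 107-fold in BEC. With normexp the log2 differences were 4.96 and 4.79. A further probe read -1.97 in LEC, -2.37 in BEC and -6.46 in FRC (not well above background), the same direction. Ces2a, named Ces6 on the array, was at -0.48 in LEC, -0.71 in BEC and -2.75 in FRC, above FRC by 4.82-fold in LEC and 4.10-fold in BEC, calls not kept with normexp. Ces1d, named Ces3 on the array, was at -1.89 in LEC, -2.42 in BEC and 1.55 in FRC, 10.8-fold lower in LEC and 15.6-fold lower in BEC. The class 2 esterases Ces2a and Ces2e were thus high in the endothelia and the class 1 esterase Ces1d in FRC. Their probes lie in separate gene clusters on chromosome 8.

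Of the epoxide hydrolases, Ephx1 was at 3.70 in LEC, 3.65 in BEC and 3.55 in FRC, nearly level. Ephx2, which hydrolyses the epoxides of arachidonic acid, was at 3.36, 2.17 and 4.06, lowest in BEC and under 4-fold. Ephx3 was at -2.78 in LEC, -0.78 in BEC and -5.49 in FRC (not well above background), in BEC above FRC by at least 11.8-fold, and at the 4-fold limit itself between LEC and BEC. Ephx4 was above background in FRC alone, at -1.48, at least 6.57-fold lower in LEC and at least 7.45-fold lower in BEC, calls not kept with normexp.

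The glutathione transferases were the family with the most genes lower in the endothelia: 10 of 21 in LEC and 9 of 21 in BEC were at least 4-fold lower than in FRC, with 0 and 1 higher. The median log2 difference of the family was -1.81 for LEC minus FRC and -1.83 for BEC minus FRC. Bounds entered at their limits, and both medians are the bounds of Gsta4. Gstm2 was at 2.12 in LEC, 4.12 in BEC and 6.34 in FRC, 18.7-fold lower in LEC and 4.65-fold lower in BEC. Gsta3 was at -1.05 in LEC, -0.88 in BEC and 2.52 in FRC, 11.9-fold lower in LEC and 10.6-fold lower in BEC, and a further probe gave log2 differences of -3.90 and -3.52. Gstt1 was at 0.30, -0.78 and 2.74, and Gstt3 at 0.18, 2.30 and 3.22, so Gstt3 was low in LEC alone, 8.23-fold lower than in FRC and 4.34-fold lower than in BEC. The LEC minus BEC differences of Gstm2 and Gstt3 fell under 4-fold with normexp. Gsta4, which conjugates the lipid aldehyde 4-hydroxynonenal, was read by 10 spots an array. Its mean was -5.08 in LEC, -4.22 in BEC and -2.39 in FRC, with SDs over spots of 0.32, 0.16 and 0.07, and it was above background in FRC alone. Mgst2, which can conjugate glutathione to the leukotriene precursor, was the exception. It was at -1.47 in LEC, 1.41 in BEC and -2.94 in FRC, above FRC by 20.4-fold in BEC, and 7.36-fold lower in LEC than in BEC. With normexp its BEC minus FRC difference was 3.17 log2.

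The 7 Gstm genes lie within 142.7 kb on chromosome 3, and 5 of them were at least 4-fold lower than in FRC in each endothelium. The cluster's other genes, and Mgst1, were named after their values were seen. Gstm1 was at 4.09 in LEC, 4.09 in BEC and 6.57 in FRC, Gstm3 at 3.53, 3.64 and 5.95, Gstm5 at 2.08, 1.18 and 4.17, and Gstm4 at -1.68, -1.72 and 0.42. FRC was the highest array for each. Gstm6 and Gstm7 also had their highest level in FRC without passing 4-fold, at -3.69 in LEC, -4.57 in BEC and -2.54 in FRC, and at -2.29, -1.67 and -1.35. A further Gstm1 probe gave a log2 difference of -1.78 for BEC minus FRC, under 4-fold. The membrane-bound Mgst1 was at 3.97 in LEC, 4.10 in BEC and 6.55 in FRC, 5.99-fold and 5.46-fold lower in the endothelia.

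**Figure D5:**
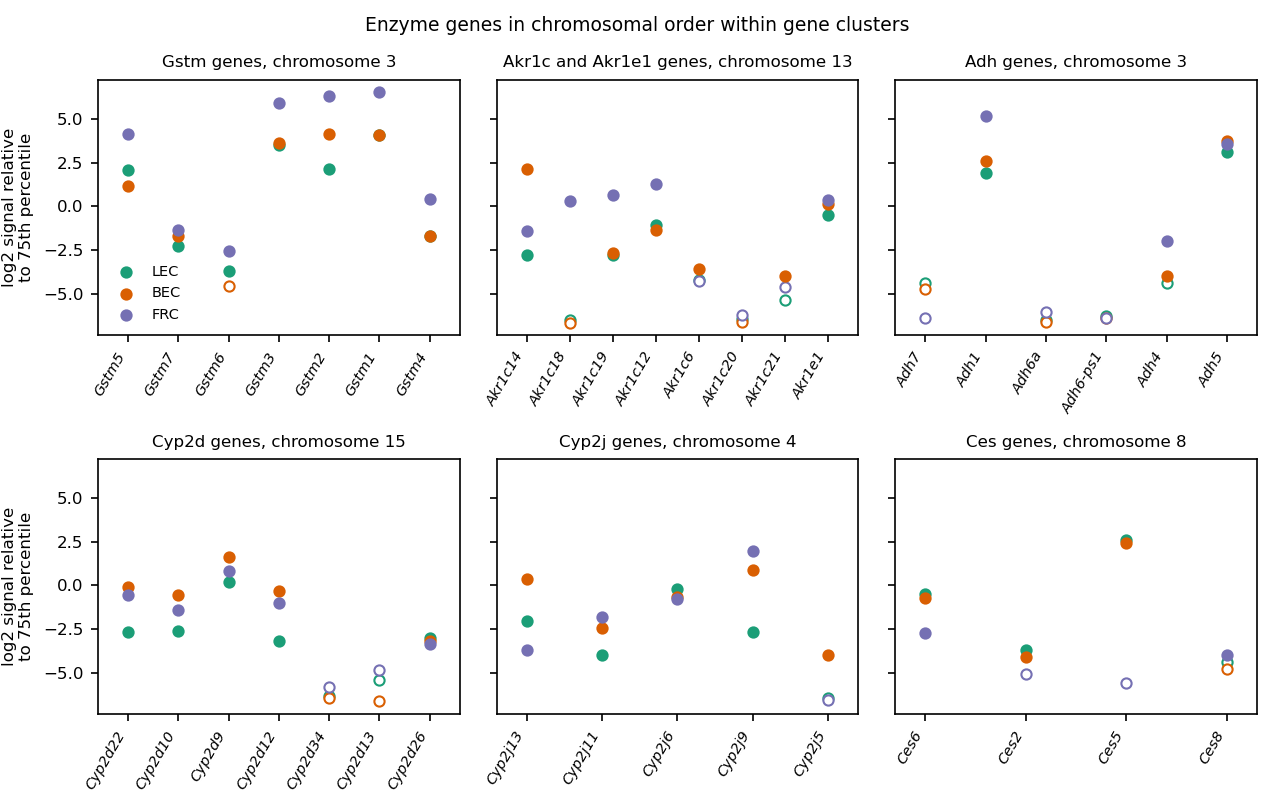
Levels of enzyme genes in chromosomal order within gene clusters (y axis, log2 signal relative to the 75th percentile of the array; x axis, order along the chromosome, not distance). Each point is 1 array, and open points were not well above background. FRC is the highest point for all 7 Gstm genes. Genes with a higher endothelial point include Akr1c14, Ces2e (Ces5), Cyp2j13 and every detected Cyp2d gene.

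The antioxidant response core was looked for in these promoters because transferase genes are textbook targets of the regulator Nrf2. Stretches of the 3 transferase genes lower in both endothelia that held the core are shown. They read 5′ to 3′ on the gene's strand, with the core (TGACNNNGC, or its reverse complement) in capitals. They come from RefSeq on build GRCm38.p6, all on the plus strand, at chr1:21240434-21240502 for Gsta3, chr3:107895782-107895850 for Gstm5 and chr6:138140441-138140509 for Mgst1.
Gsta3: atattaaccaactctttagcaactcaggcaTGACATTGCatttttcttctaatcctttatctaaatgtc
Gstm5: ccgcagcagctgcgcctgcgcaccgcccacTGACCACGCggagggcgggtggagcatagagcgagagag
Mgst1: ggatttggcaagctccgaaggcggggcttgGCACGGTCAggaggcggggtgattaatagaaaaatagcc
The core begins 121, 42 and 56 bases before the start of Gsta3, Gstm5 and Mgst1, and in Gstm5 it overlaps a CACGC. It occurred in 12.4% of all promoters, in 14% of all genes and in 14 of the 146 enzyme genes (9.59%). Among the genes lower in LEC than in FRC with a promoter in the table, 4 of 26 held it (15.4%), Akr1c19 being the fourth. The other transferases lower in both endothelia had no core in the window or no promoter to search. Gstm7, which did not pass 4-fold, held the core.

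Of the UDP-glucuronosyltransferases, 1 passed 4-fold. Ugt1a6b, of a group that conjugates planar phenols, was at -1.28 in LEC, 0.16 in BEC and 4.19 in FRC, 44.2-fold lower in LEC and 16.3-fold lower in BEC. Ugt1a genes share their last exons, and whether this probe lies in them was not tested. Ugt2b34 was at 0.56 in LEC, 0.85 in BEC and -0.84 in FRC, under 4-fold.

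Among the sulphotransferases, 2 of 7 compared were at least 4-fold lower in each endothelium than in FRC. Sult5a1 was at -1.09 in LEC, -1.41 in BEC and 3.76 in FRC, 28.9-fold lower in LEC and 35.8-fold lower in BEC. Sult1e1, the oestrogen sulphotransferase, was above background in FRC alone, at -0.21, at least 15.9-fold lower in LEC (not kept with normexp) and at least 18.0-fold lower in BEC. BEC held the higher levels of a pair of relatives that act on phenols. Sult1a1 was at 3.52 in LEC, 5.54 in BEC and 3.80 in FRC, 4.07-fold lower in LEC than in BEC, and that call was lost with the authors' matrix values. Sult1b1 was above background in BEC alone, at -2.09, at least 4.75-fold higher than in FRC and at least 4.31-fold higher than in LEC, calls not kept with normexp. A further Sult1b1 probe was not well above background on any array.

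Other genes of these pathways were read from 6 lists: electron donors, glutathione supply, conjugate donors, the Nrf2 axis, sensors of foreign compounds, and other aldehyde and quinone enzymes. Of 35 on the array, 0 were at least 4-fold higher and 6 lower in LEC than in FRC, of 34 compared, and 2 higher and 5 lower in BEC than in FRC. Over all genes compared the shares were 4.89% and 5.93% for LEC, and 6.58% and 7.58% for BEC. Of the 6 lower in LEC, 3 were in the last list, Cbr3, Aox3 and Xdh. Por, the electron donor of microsomal P450s, was at 2.47 in LEC, 2.78 in BEC and 3.87 in FRC, under 4-fold. Ugdh, which makes the glucuronic acid donor, was at 1.22, 0.78 and 4.28, 8.34-fold lower in LEC and 11.4-fold lower in BEC. Slc7a11, the cystine carrier that supplies glutathione synthesis, was at -2.34 in LEC, -6.58 in BEC (not well above background) and 0.80 in FRC, 8.82-fold lower in LEC and at least 36.2-fold lower in BEC. The glutathione synthesis genes Gclc, Gclm and Gss did not pass 4-fold. None of the Nrf2 axis genes passed 4-fold. Nfe2l2, which encodes Nrf2, was at 4.33 in LEC, 4.32 in BEC and 4.32 in FRC, and its textbook target Nqo1 at 1.70, 0.36 and -0.29, which is highest in LEC.

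Markers of other cell types moved with the same contrasts. The summed signal of 4 mesothelium markers, as a multiple of the 75th percentile, was 1.93 in LEC, 0.536 in BEC and 6.79 in FRC, with 2 of 4 at least 4-fold lower in LEC and 4 of 4 in BEC. The mesothelial regulator Wt1 was above background in FRC alone, at 0.76. The 6 adipocyte markers summed to 5.17 in LEC, 22.0 in BEC and 3.01 in FRC, with 2 of 5 compared at least 4-fold higher and 1 lower in LEC than in FRC, and 3 higher and 1 lower in BEC than in FRC. Cidec, Cfd and Retn exceeded FRC in BEC by 17.7-fold, 32.1-fold and 10.5-fold, and Plin1 was the lower one in both endothelia. The 2 red cell markers summed to 83.2, 221 and 17.0, both at least 4-fold higher in each endothelium than in FRC. The 6 pericyte and smooth muscle markers summed to 58.7, 47.3 and 72.1. Acta2, at 5.67, 5.17 and 5.48, gave most of that sum. Of these 6 markers, 2 were at least 4-fold lower in LEC than in FRC, and 2 in BEC. The 4 epithelium markers summed to 3.41, 0.818 and 5.04, with 0 at least 4-fold lower in LEC than in FRC and 2 in BEC. The part of these cells in the enzyme differences was not tested. Of the hepatocyte markers, Ttr and Apoa1 were not well above background on any array and Alb was just above it in FRC alone, at -4.11. The 7 leukocyte markers summed to 11.7 in LEC, 7.59 in BEC and 7.20 in FRC, a sum to which Lyz2 gave the most. Of the 6 compared, 2 exceeded FRC in BEC by 4-fold or more, Ptprc (CD45) by 6.04-fold and the B cell gene Cd79a by 7.69-fold, and Cd79a was 4.94-fold lower in LEC than in BEC. Their part in the enzymes that were high in BEC was not tested. The 4 LEC markers summed to 143 in LEC, 9.84 in BEC and 0.668 in FRC, and the 4 BEC markers to 241, 966 and 8.23. The 6 FRC markers summed to 47.2 in LEC, 21.3 in BEC and 1116 in FRC, so FRC genes were also read on the endothelial arrays, and the part of this in the endothelial enzyme levels was not tested.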

How the data were processed

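The deposited scanner files hold intensity values of 43379 non-control spots per single-colour array, for which the submitters' processing notes name Agilent Feature Extraction, version 10.7.3.1. Background subtraction and detrending were done inside each array, surrogates stand in for low values, arrays were not scaled to each other, and the positions refer to build mm9, per the file headers. The spike-in slope per the file headers was 1 for LEC, 0.919 for BEC and 0.821 for FRC. The deposited series matrix holds linear, quantile-normalized intensity by the authors. Its program was not given in the sources used here, and no column of other samples was present.

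Spots marked as outliers were left out and spots of a probe averaged, leaving 41156 probes. Values were log2 processed signals less the log2 of each array's 75th percentile. The probe of highest mean represents a gene, 63 of 184 enzyme genes having several. It was compared if well above background on either array and called at 4-fold. Named genes were, per comparison and direction, up to 8 of the largest measured differences and 4 of the largest bounds, the widest ranges and brightest single-array genes of each family, the detected genes of the P450 lists, and the partners. Symbols were updated by RefSeq accession, which matched 175 enzyme genes, 9 under a newer symbol. A further 13 genes match the rule under a newer symbol only and were not included. Promoters matched 146 genes. The values of 1 enzyme gene are counted in the totals but not reported here. The members and lists were chosen with earlier results of these data known. The calling step was tested on simulated data. Alternatives were normexp in limma 3.58.1 (R 4.3.3, offset 50), the authors' matrix, the median of probes detected on all arrays, the spike-in slope, no filter on dim probes, the mean of a gene's probes, outlier spots kept, and thresholds of 2-fold and 8-fold. Python 3.11.15 was used. The number of arrays limits the precision.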

Additional observations from a re-analysis of the deposited data

How the results depend on the processing

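No paired analysis was possible because each population has 1 array, and for the same reason no array could be left out. The counts of enzymes past 4-fold stayed within 1.5 times with the authors' matrix, the median of probes detected on all arrays, the mean of a gene's probes and outlier spots kept. With normexp, which adds an offset of 50 to every spot, 20 enzymes were lower in LEC than in FRC, with 3.47% of all genes. It left 1 higher in LEC than in BEC and 5 lower in LEC than in BEC. The spike-in slope gave 9 above FRC in LEC and 4 above BEC in LEC, and leaving out the filter on dim probes gave 8 and 5. Shares over all genes are not given here for the spike-in slope, the unfiltered counts or normexp in LEC against BEC. At 2-fold, 13 in LEC exceeded FRC (with 13% of all genes) and 13 in LEC exceeded BEC (11%). At 8-fold, 17 were lower in LEC (3.16%) and 16 lower in BEC (3.98%) than in FRC, and 2 lower in LEC than in BEC (1.37%). The median LEC minus BEC of the enzymes turned positive with normexp (0.024), the spike-in slope (0.035) and no filter (0.044). Of 76 calls of named enzymes, normexp kept 50, the spike-in slope 71, the mean of probes 70 and the authors' matrix 74, and none reversed. Normexp moved the median of all genes for LEC minus FRC to 0.13, against 0.03. The normexp values and calls given here are not corrected for the all-gene medians. Relative to those, Cyp2c23 (-1.91 for LEC minus FRC) and Gstm2 (-1.99 for LEC minus BEC) would pass 4-fold and Ephx3 (2.02 for BEC minus FRC) would not. Signal near background limits the bounds, and the cause of the changes was not tested.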
